A study of Sus scrofa with 12 samples.

Results

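The elastic fibre and microfibril genes examined here are ELN, FBN1, FBN2, FBLN1, FBLN2, FBLN5, EFEMP1, EFEMP2, MFAP2, and MFAP5. They were found by their symbols in the count table, where each of the 10 had a single row among 31908 genes. All 10 passed the filter on low counts, and FBN2 and MFAP5 had the lowest counts, with 47 to 148 and 33 to 94 counts per library.

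The genes were measured by sequencing of poly-A RNA from paVICs, which are interstitial cells isolated from wild-type pig aortic valves. The 12 libraries formed 4 groups of 3, which were vehicle, 10 μM LPC (lysophosphatidylcholine, a lipid of oxidized lipoproteins), 60 μM dantrolene (a blocker of the ryanodine receptor, which releases calcium from intracellular stores), and LPC + dantrolene. Every group was held for 24 h in low-serum medium, and by the study's methods every group also received the solvents of both agents, 0.6% DMSO and 0.1% ethanol. Replicates with the same number came from the same primary isolation of cells, grown on its own day and pooled from several hearts, so a replicate is not a single animal, and cultured cells had neither the valve matrix nor endothelium around them.

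Elastic fibres consist of a core of cross-linked elastin laid on a scaffold of fibrillin microfibrils. Fibulins bring elastin to the scaffold and to the lysyl oxidases that cross-link it, and small microfibril-associated glycoproteins bind to fibrillin. In the aortic valve, elastin-rich sheets in the layer facing the ventricle help the leaflet recoil, and interstitial cells make this matrix.

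ELN encodes elastin and lies on chromosome 3 (11214194 to 11245891) of the pig genome, build Sscrofa11.1, where RefSeq also places EFEMP1 (85407677 to 85473251). The fibrillin genes FBN1 and FBN2 lie on chromosome 1 (123102011 to 123359649) and chromosome 2 (131150665 to 131370241). FBLN1 and MFAP5 share chromosome 5 (3839498 to 3927178 and 62742520 to 62757522), and EFEMP2 lies with FBN2 on chromosome 2 (6455155 to 6463493). FBLN2 lies on chromosome 13 (70757255 to 70830430), FBLN5 on chromosome 7 (113423629 to 113526412), and MFAP2 on chromosome 6 (75607515 to 75615680). The counts were summed over whole genes, so isoforms cannot be told apart.

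Levels are given as CPM, a gene's counts per 1000000 counts of the library, with library sizes scaled by TMM factors. The libraries held 16489684 to 24105935 counts on genes, and a floor of 3 counts equals 0.114 to 0.186 CPM, with counting error alone in view. The deposited counts had already been adjusted for a batch that the study's methods do not name, and the isolation means of each gene lay close together in them. The tests do not account for the degrees of freedom spent in this way, and adjusted p-values may thus come out too small. Replicate 2 of LPC + dantrolene stood apart, with a median correlation of 0.909 with its own group against 0.937 to 0.974 for the other libraries. Results with and without it are given for EFEMP1, ELN, ADAMTS6, and the counts of called genes, and not for every gene. Interstitial cell markers were abundant (summed level of 9 genes, 44388 to 81684 CPM), and 6 leukocyte markers summed to 13.6 to 28.5 CPM, of which CD14 reached 24.5 CPM and CD68 3.17 CPM while PTPRC and CD3E were at 0 in every library.

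The 10 genes together held 0.399% to 0.783% of the counts of a library, and FBN1 alone made up 31.4% to 53.3% of that share. Over the 12 libraries, the highest level of a gene was between 2.38 and 4.48 times its lowest, for EFEMP2 and MFAP2.

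**Figure D1:**
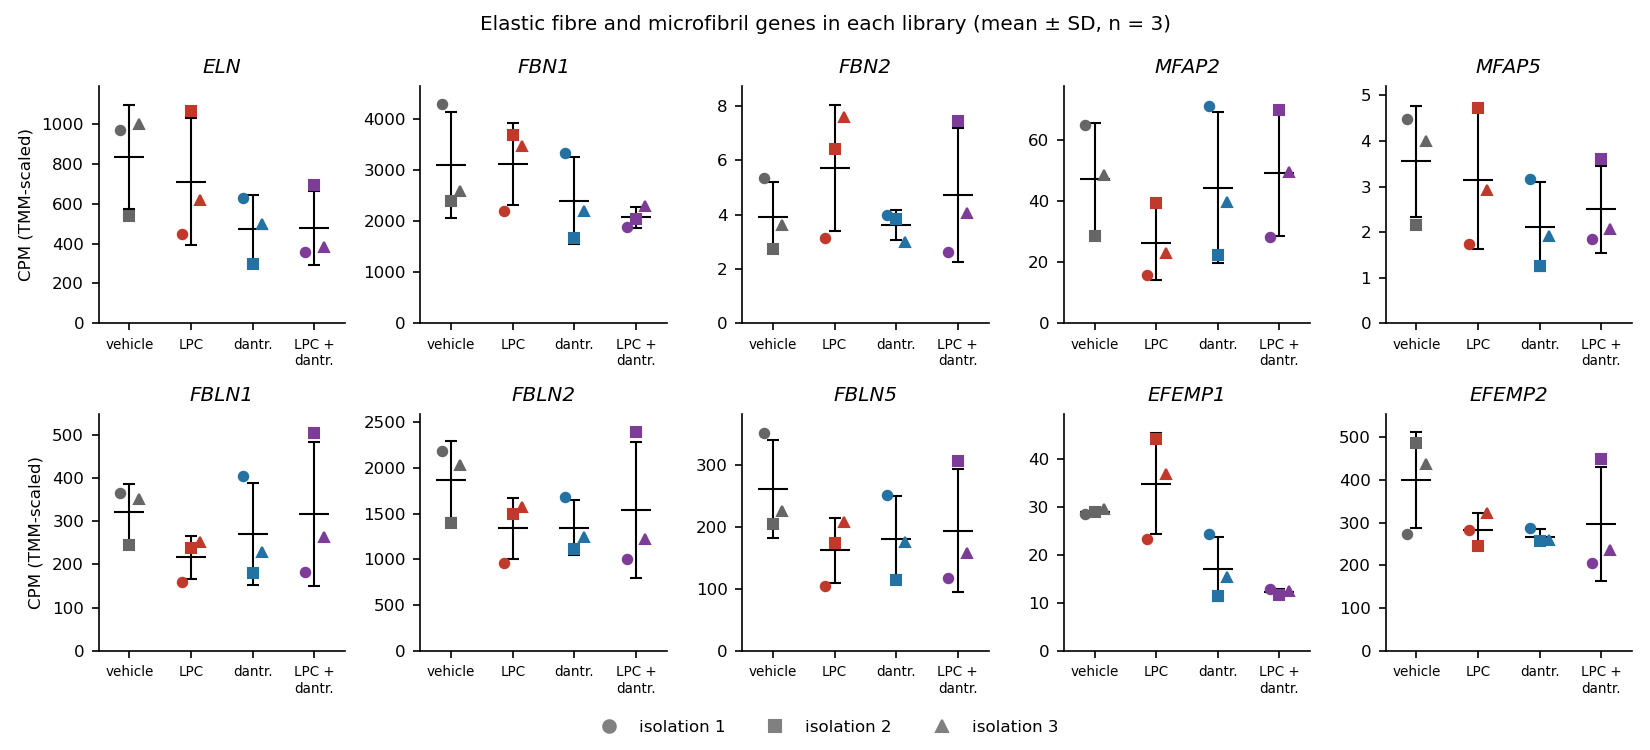
Levels of the 10 genes in each of the 12 libraries, in TMM-scaled CPM on linear axes that start at 0, with points shaped by isolation and black bars for the mean ± SD of 3 libraries per group. EFEMP1 is the gene whose LPC + dantrolene libraries (11.7 to 12.8 CPM) all lie below both the vehicle and the LPC libraries.

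Differences between groups were tested with edgeR's quasi-likelihood test on all 13216 genes that passed the filter. P-values were adjusted over all of them with the Benjamini-Hochberg method, and genes with an adjusted p under 0.05 were called. With LPC compared to vehicle, 0 of the 10 genes were called by edgeR (background 8.69% of all genes tested), and 2 of 10 had an unadjusted p under 0.05. With dantrolene compared to vehicle, 0 of 10 were called by edgeR (background 8.8%), again with 2 at an unadjusted p under 0.05. The count with DESeq2's Wald test was also 0 in both comparisons.

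A single gene was called with LPC + dantrolene compared to vehicle (background 7.14%), and a single gene compared to LPC (background 0.507%). In both cases this was EFEMP1, which was lower with the combination. For LPC + dantrolene compared to dantrolene, 0 of 10 genes were called by edgeR (background 0.0227%), and for the interaction, the effect of LPC with dantrolene less its effect without dantrolene, 0 of 10 (background 4.65%). In these last comparisons none of the 10 had an unadjusted p under 0.05, and DESeq2 called 0.

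The fitted log2 fold changes of the 10 genes lay mostly below 0 in the comparisons to vehicle. Their median was −0.36 with LPC, −0.50 with dantrolene, and −0.43 with LPC + dantrolene, beside medians over all genes tested of −0.18, −0.11 and −0.08. Negative values were found for 7, 10 and 8 of the 10 genes, against 63.3%, 58.6% and 58.1% of all genes tested. On total counts alone, without TMM scaling, the medians of the 10 genes were −0.19, −0.28 and −0.28 and those of all genes −0.0023, 0.13 and 0.12, and FBN2 and MFAP2 turned positive with dantrolene. These 3 comparisons share the vehicle libraries and are not independent of each other.

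**Figure D2:**
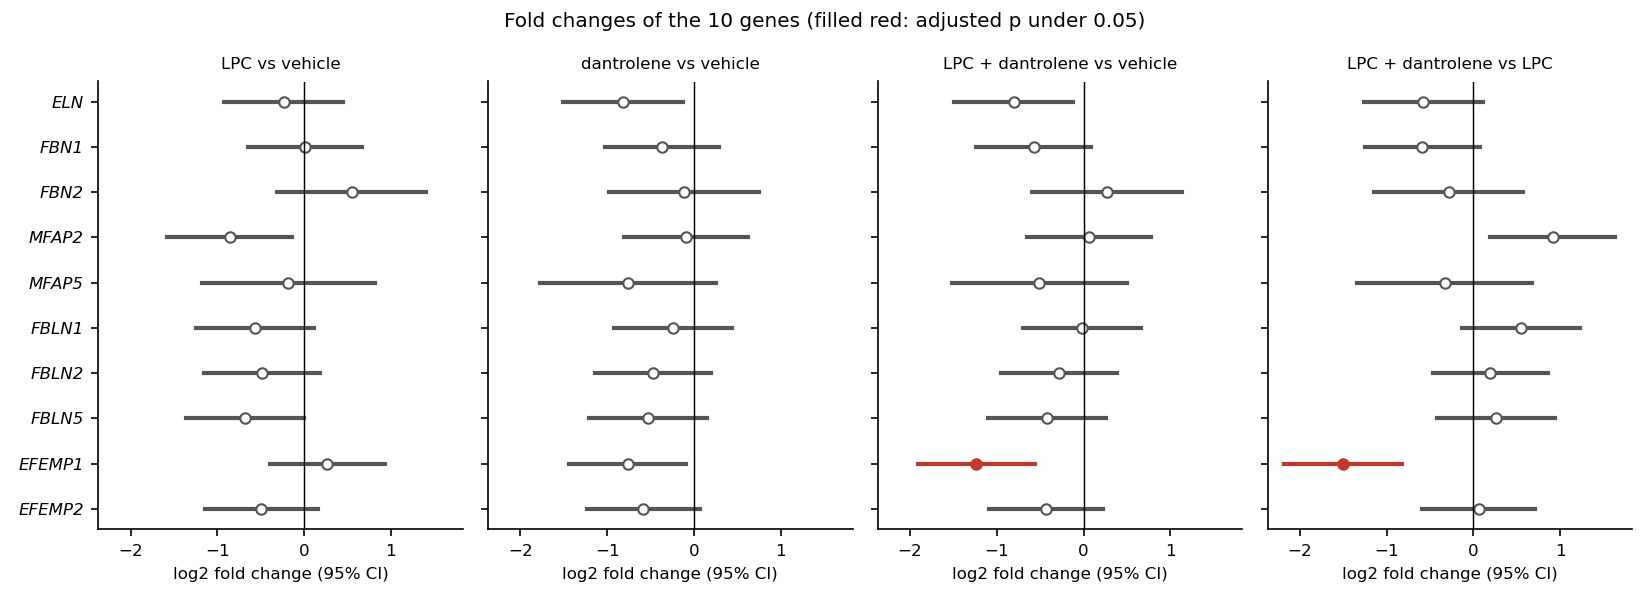
Log2 fold changes of the 10 genes in 4 comparisons, with 95% confidence intervals from the edgeR fit; filled red points mark an adjusted p under 0.05. EFEMP1 is filled in both comparisons of LPC + dantrolene, at −1.23 compared to vehicle and −1.50 compared to LPC, and every other point is open.

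EFEMP1 encodes fibulin-3, an extracellular glycoprotein of the fibulin family found around basement membranes and elastic tissue. It lay at 28.6, 28.9 and 29.6 CPM in vehicle replicates 1, 2 and 3, and at 23.5, 44.3 and 36.9 CPM with LPC. The vehicle libraries were almost level, and the LPC libraries lay on both sides of them. With dantrolene it lay at 24.4, 11.4 and 15.5 CPM, and with LPC + dantrolene at 12.8, 11.7 and 12.5 CPM. All dantrolene libraries were below all vehicle libraries, all LPC + dantrolene libraries were below all vehicle and all LPC libraries, and the dantrolene and LPC + dantrolene libraries overlapped. Among all genes tested, 11% had every dantrolene library below every vehicle library, and 4.93% had every LPC + dantrolene library below every LPC library.

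Compared to vehicle (29.0 ± 0.495 CPM, SD, n = 3), EFEMP1 was at 12.3 ± 0.593 CPM with LPC + dantrolene, a fold change of 0.425 (log2 −1.23 ± 0.34 SE, adjusted p = 0.0104, edgeR quasi-likelihood, Benjamini-Hochberg). Compared to LPC (34.9 ± 10.5 CPM) the log2 fold change was −1.50 ± 0.34 SE (adjusted p = 0.0134, the same edgeR test). With dantrolene it was at 17.1 ± 6.64 CPM, and its log2 fold change of −0.76 compared to vehicle did not pass the correction (unadjusted p = 0.0257, adjusted p = 0.190, edgeR), although the groups did not overlap. LPC alone had a log2 fold change of 0.26 that was not called (adjusted p = 0.723, edgeR), LPC + dantrolene compared to dantrolene one of −0.47 (adjusted p = 1), and the interaction was −0.73 ± 0.47 SE (adjusted p = 0.526). The effect of LPC was therefore not shown to differ with and without dantrolene.

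Both calls of EFEMP1 stood near the threshold. Compared to vehicle, the edgeR call was lost without vehicle replicate 3 (log2 −1.19, adjusted p = 0.0582) and without LPC + dantrolene replicate 3 (−1.24, 0.0665), on total counts (−1.01, 0.0711), and when the fit held only the groups compared (−1.14, 0.0753). Compared to LPC, it was lost without LPC replicate 2 (−1.29, 0.257), LPC replicate 3 (−1.46, 0.108), or LPC + dantrolene replicate 3 (−1.51, 0.0940), on total counts (−1.44, 0.0992), with only the groups compared (−1.51, 0.112), and with the isolation as a replicate block (−1.51, adjusted p = 0.0744). Without replicate 2 of LPC + dantrolene, the values were −1.14 compared to vehicle (adjusted p = 0.00702) and −1.48 compared to LPC (adjusted p = 0.00695, edgeR). The summed level of 8 endothelial markers, none at 0 throughout, was 86.5 to 88.9 CPM with vehicle and 64.0 to 71.2 with LPC. It was 48.9 to 67.1 CPM with dantrolene and 53.5 to 62.3 with LPC + dantrolene. PECAM1 and CDH5 had the highest levels (up to 44.2 and 37.7 CPM). Of the 7 that passed the filter, only CDH5 was called compared to vehicle, lower with dantrolene (log2 −1.20, adjusted p = 0.0111, edgeR). PECAM1 was not called with dantrolene (−0.26, 0.781), and TEK had a positive uncalled value with LPC (1.84, 0.379). The part of these markers in the EFEMP1 result was not tested. In bulk RNA, fewer cells of a type and less RNA per cell cannot be told apart.

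**Figure D3:**
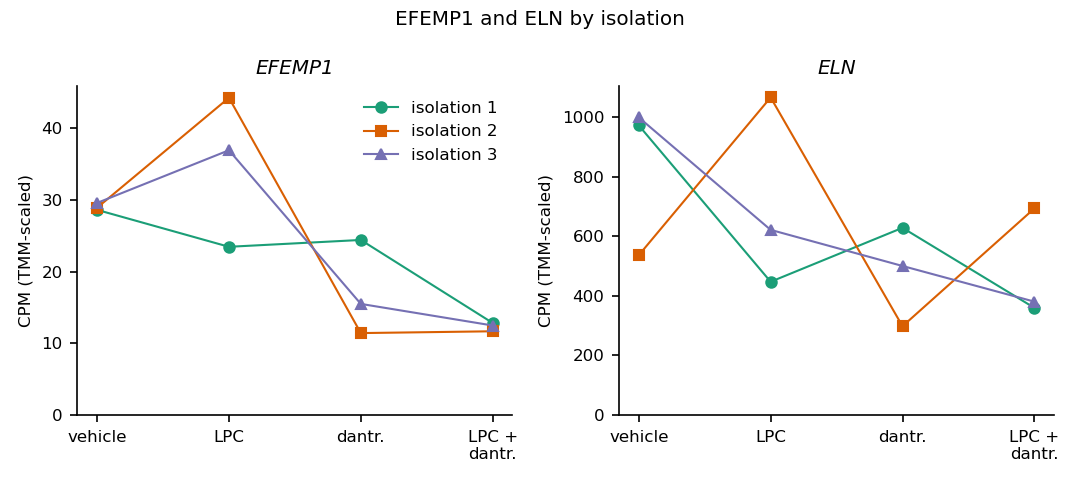
Levels of EFEMP1 and ELN in TMM-scaled CPM for each isolation across the 4 groups, with lines joining libraries of the same isolation. EFEMP1 ends between 11.7 and 12.8 CPM with LPC + dantrolene in all isolations, whereas the lines of ELN cross, with isolation 2 highest with LPC (1066 CPM) and LPC + dantrolene (693 CPM) and lowest with vehicle (536 CPM) and dantrolene (298 CPM).

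ELN, the gene of elastin itself, was at 972, 536 and 999 CPM with vehicle and at 628, 298 and 500 CPM with dantrolene. It was at 447, 1066 and 622 CPM with LPC and at 360, 693 and 381 CPM with LPC + dantrolene. ELN was lower with dantrolene than with vehicle in all 3 isolations, as were FBN1, FBLN2, FBLN5, EFEMP1, and MFAP5. The share of all genes tested with this pattern was not computed. The ELN groups overlapped, with vehicle replicate 2 below dantrolene replicate 1. The means were 836 ± 260 CPM with vehicle, 712 ± 319 with LPC, 476 ± 167 with dantrolene, and 478 ± 187 with LPC + dantrolene (SD, n = 3).

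The log2 fold change of ELN with dantrolene was −0.81 ± 0.35 SE (unadjusted p = 0.0213, adjusted p = 0.168, edgeR quasi-likelihood, Benjamini-Hochberg). With LPC + dantrolene compared to vehicle it was also −0.81 ± 0.35 SE (adjusted p = 0.200), and with LPC −0.23 ± 0.34 SE (adjusted p = 0.760, the same edgeR test). None of these was called. Replicate 2 of LPC + dantrolene held the highest ELN level of its group, and without that library ELN was called lower than vehicle (log2 −1.12, adjusted p = 0.0121, edgeR). Smooth muscle markers, 5 genes that can accompany elastin production in the vessel wall, summed to 2425 to 4901 CPM with vehicle and 2353 to 4313 with LPC. They summed to 2045 to 2599 CPM with dantrolene and 1087 to 3347 with LPC + dantrolene. Of the 5, only DES was called compared to vehicle, lower with dantrolene (log2 −1.30, adjusted p = 0.0117, edgeR) and with LPC + dantrolene (−1.63, 0.00114). The part of these markers in the ELN values was not tested.

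FBN1 encodes fibrillin-1, the main protein of microfibrils after birth. It was at 4282, 2394 and 2593 CPM with vehicle, 2200, 3672 and 3469 CPM with LPC, 3329, 1658 and 2198 CPM with dantrolene, and 1888, 2036 and 2296 CPM with LPC + dantrolene. All LPC + dantrolene libraries were below all vehicle libraries, which was so for 2 of the 10 genes (EFEMP1 is the other) and for 5.74% of all genes tested. The log2 fold change was −0.58 ± 0.33 SE (adjusted p = 0.480, edgeR with Benjamini-Hochberg adjustment), so FBN1 was not called. With LPC its log2 fold change was 0.01, with a 95% interval of −0.65 to 0.67.

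FBN2 encodes fibrillin-2, which is most used in embryonic microfibrils. It lay at 5.34, 2.74 and 3.603 CPM with vehicle, 3.12, 6.41 and 7.61 with LPC, 3.997, 3.85 and 3.00 with dantrolene, and 2.63, 7.45 and 4.06 with LPC + dantrolene. All groups overlapped. The largest of its log2 fold changes compared to vehicle, 0.55 ± 0.43 SE with LPC, was not called (adjusted p = 0.604, edgeR), and the intervals of all 3 span changes in both directions.

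MFAP2 and MFAP5 encode the microfibril-associated glycoproteins MAGP-1 and MAGP-2, which bind fibrillin. MFAP2 was at 64.9, 28.5 and 48.5 CPM with vehicle and at 15.9, 39.5 and 22.9 CPM with LPC. It was at 71.2, 22.2 and 39.8 CPM with dantrolene and at 28.3, 70.0 and 49.5 CPM with LPC + dantrolene. The LPC group had the lowest mean (26.1 ± 12.1 CPM, against 44.4 to 49.2 CPM in the other groups), but its libraries overlapped those of every other group.

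The log2 fold change of MFAP2 was −0.86 ± 0.36 SE with LPC compared to vehicle (unadjusted p = 0.0202, adjusted p = 0.169, edgeR) and 0.92 ± 0.36 SE with LPC + dantrolene compared to LPC (unadjusted p = 0.0135, adjusted p = 0.461). Neither was called. With only the LPC and vehicle libraries in the fit, the first became a call (log2 −0.79, adjusted p = 0.0407, edgeR). Its interaction, 1.01 ± 0.51 SE, did not pass the correction (unadjusted p = 0.0514, adjusted p = 0.347, edgeR). MFAP5 lay between 1.26 and 4.72 CPM in all libraries, its groups overlapped, and its log2 fold changes compared to vehicle were −0.18, −0.76 and −0.51 with LPC, dantrolene, and LPC + dantrolene, each with an SE of 0.50 to 0.51 (adjusted p from 0.533 to 0.868, edgeR).

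FBLN5 encodes fibulin-5, which tethers elastin to microfibrils and to cells. It was at 352, 205 and 226 CPM with vehicle, 105, 175 and 208 with LPC, 252, 115 and 176 with dantrolene, and 118, 307 and 158 with LPC + dantrolene. FBLN5, like FBLN1, was lower with LPC than with vehicle in all 3 isolations. The log2 fold change of FBLN5 with LPC was −0.68 ± 0.34 SE and was not called (unadjusted p = 0.0494, adjusted p = 0.313, edgeR). With LPC + dantrolene compared to vehicle it was −0.43 (adjusted p = 0.736, edgeR), and −0.87 to −0.15 over 18 alternatives, 0 of them called.

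EFEMP2, the gene of fibulin-4, which is needed to bring lysyl oxidase to elastin, was at 275, 487 and 438 CPM with vehicle and at 284, 246 and 322 CPM with LPC. With dantrolene its libraries lay close together, at 287, 256 and 259 CPM, and with LPC + dantrolene they lay at 205, 450 and 235 CPM. Its log2 fold change of −0.58 ± 0.33 SE with dantrolene was not called (adjusted p = 0.409, edgeR). With LPC + dantrolene compared to vehicle it was −0.43 (adjusted p = 0.709, edgeR), and −0.80 to −0.23 over 18 alternatives, 0 of them called.

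FBLN1 and FBLN2, which encode fibulins of elastic fibres and basement membranes, had group means of 217 to 321 CPM and 1343 to 1876 CPM. FBLN1 was lowest in LPC replicate 1 (160 CPM) and highest in LPC + dantrolene replicate 2 (505 CPM), and FBLN2 had its lowest and highest levels in the same libraries (959 and 2392 CPM). Both had their lowest mean with LPC. FBLN1 had a log2 fold change of −0.56 ± 0.34 SE with LPC (adjusted p = 0.477, edgeR) and FBLN2 one of −0.48 ± 0.34 SE (adjusted p = 0.555), and all pairs of groups overlapped for both genes. With LPC + dantrolene compared to vehicle, FBLN1 had one of −0.02 and FBLN2 one of −0.28. Over 18 alternatives these ranged from −0.47 to 0.26 and from −0.70 to −0.06, with 0 calls.

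Levels of most of the genes varied together within groups. Dantrolene replicate 1 had the highest level of its group for 10 of the 10 genes and dantrolene replicate 2 the lowest for 9. LPC replicate 1 and LPC + dantrolene replicate 1 were each the lowest of their group for 9 genes, vehicle replicate 2 was the lowest for 8, and LPC + dantrolene replicate 2 was the highest for 8. The order of the isolations thus differed between groups, and in these adjusted counts the highest isolation mean of a gene was 1.07 to 1.37 times its lowest. Over the 12 libraries, deviations of log2 CPM from the group means had a median Pearson correlation of 0.80 over 36 gene pairs without EFEMP2. Over the 9 pairs with EFEMP2 the median was 0.16. This describes values that share the same libraries and scaling, and the split by EFEMP2 was not tested. Neither the correlations nor the shared highest and lowest libraries were computed for other genes, so they are not shown to be particular to these 10.

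Ratios of 2 genes within a library do not depend on its scaling, but they carry the batch adjustment already made to the deposited counts. Of 8 ratios computed, 3 are described here, chosen after their values were seen, and none was tested, since 3 libraries against 3 cannot give a two-sided exact permutation p below 0.1. Counts were not divided by transcript length, so each ratio is compared only across libraries.

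The ratio of MFAP2 to MFAP5 counts was 14.5, 13.2 and 12.1 in the vehicle libraries and 9.12, 8.36 and 7.82 with LPC. It was 22.4, 17.7 and 20.9 with dantrolene and 15.3, 19.4 and 24.1 with LPC + dantrolene. Every LPC library was below every vehicle library, and every library with dantrolene was above every vehicle library, although the levels of either gene alone overlapped. How often ratios of other gene pairs in the whole table separate in this way was not computed. MFAP5 gave 33 to 94 counts per library, so the counting error of each ratio is considerable.

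EFEMP1 gave 6.68, 12.1 and 11.4 counts per 1000 FBN1 counts in the vehicle libraries and 10.6 to 12.05 with LPC. It gave 6.89 to 7.33 with dantrolene and 5.44 to 6.80 with LPC + dantrolene. All libraries with dantrolene were below all LPC libraries, whereas vehicle replicate 1 lay among the former. FBLN1 gave 159 to 240 counts per 1000 FBLN2 counts over the 12 libraries, with 167 to 175 in the vehicle group and 181 to 216 with LPC + dantrolene, so the ratio had a narrower range than the level of either gene.

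**Figure D4:**
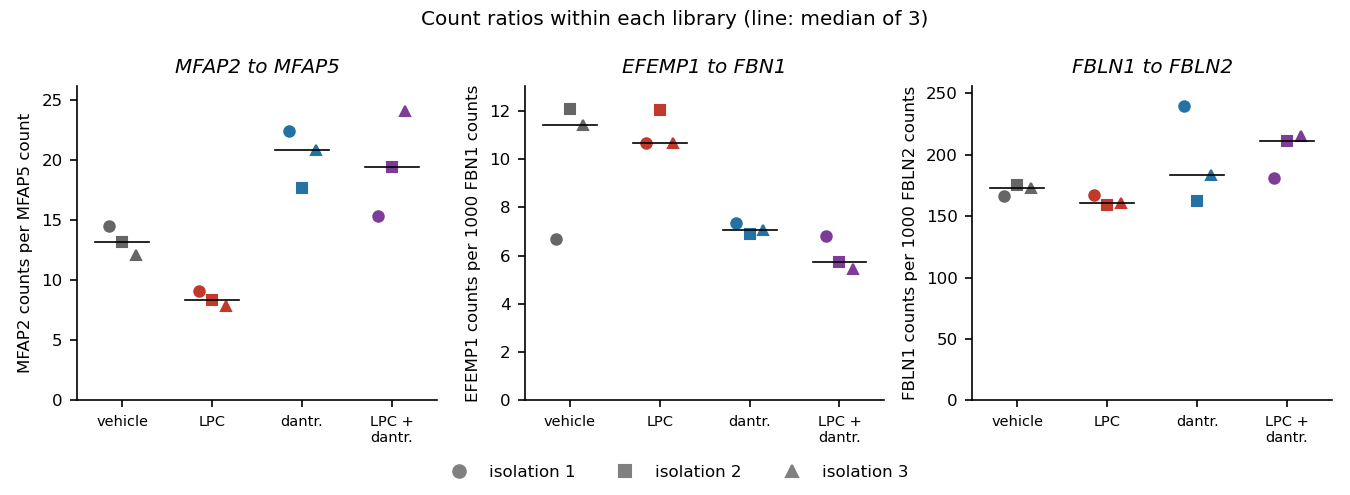
Count ratios within each library for MFAP2 to MFAP5, EFEMP1 per 1000 FBN1 counts, and FBLN1 per 1000 FBLN2 counts, on linear axes from 0, with points shaped by isolation and a line at the median of each group of 3. The MFAP2 to MFAP5 ratio lies at 7.82 to 9.12 with LPC, 12.1 to 14.5 with vehicle, and 15.3 to 24.1 in the libraries with dantrolene.

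The wider elastic fibre pathway was followed in a list of 34 other genes, of which 33 had a row (not CTSK). Of those 33, 30 passed the filter (not FBN3, MMP9, or MMP12). Of these 30, 2 were called higher and 0 lower with LPC, 2 higher and 2 lower with dantrolene, and 1 higher and 1 lower with LPC + dantrolene, all compared to vehicle in edgeR. These 2, 4 and 2 of 30 genes stood beside backgrounds of 8.69%, 8.8% and 7.14% of all genes tested, and the called genes over the whole table were 1129 higher and 19 lower, 997 higher and 166 lower, and 824 higher and 119 lower. In LPC + dantrolene compared to LPC, 0 were called by edgeR and 3 had an unadjusted p under 0.05. Compared to dantrolene, 0 were called and 0 had such a p, and for the interaction 0 were called and 5 had one. DESeq2 called 0 in these last 3 comparisons. With the isolation as a replicate block, 1, 2 and 1 genes were called with LPC, dantrolene, and LPC + dantrolene compared to vehicle (background 6.66%, 6.18% and 4.68%), and without replicate 2 of LPC + dantrolene 4, 8 and 9 (background 12.5%, 13.2% and 15.5%). The median log2 fold changes of the 30 genes over all 12 libraries were −0.32, −0.42 and −0.19 in the same order compared to vehicle.

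Among the cross-linking enzymes, which oxidize lysines of elastin and collagen, LOXL4 was lower with both dantrolene treatments and LOXL1 with dantrolene. LOXL4 was at 106, 180 and 185 CPM with vehicle, 52.7, 80.9 and 65.9 with dantrolene, and 94.0, 88.5 and 45.5 with LPC + dantrolene, with no overlap between vehicle and either group. Among all genes tested, 11% lay all below vehicle with dantrolene and 5.74% with LPC + dantrolene. Its log2 fold changes were −1.24 ± 0.33 SE with dantrolene (adjusted p = 0.00713, edgeR quasi-likelihood, Benjamini-Hochberg) and −1.05 ± 0.33 SE with LPC + dantrolene (adjusted p = 0.0339).

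LOXL1, the family member most tied to elastic fibre upkeep, was at 366, 271 and 372 CPM with vehicle and 223, 110 and 139 with dantrolene (log2 −1.10 ± 0.34 SE, adjusted p = 0.0229, edgeR). With LPC + dantrolene it was at 123, 269 and 136 CPM, again all below vehicle (as for 5.74% of all genes tested), but was not called (log2 −0.94, adjusted p = 0.0785, edgeR). LOX, LOXL2, and LOXL3 were not called in any comparison. LOX was at 523, 322 and 333 CPM with vehicle and 441, 463 and 354 with dantrolene. With LPC it was at 536, 585 and 828 CPM, all above vehicle (as for 16.6% of all genes tested). With LPC + dantrolene it was at 407, 195 and 323 CPM, all below LPC (as for 4.93%).

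ADAMTS6, a secreted protease of the group that acts on microfibrils, was higher in all 3 treatments. It was at 20.5, 18.1 and 11.8 CPM with vehicle, 51.6, 39.6 and 24.7 with LPC, 40.5, 44.6 and 52.2 with dantrolene, and 65.0, 15.4 and 87.2 with LPC + dantrolene. All LPC and all dantrolene libraries were above vehicle, whereas replicate 2 of LPC + dantrolene lay within the vehicle range. Among all genes tested, 16.6% lay all above vehicle with LPC and 16.1% with dantrolene. The log2 fold changes were 1.20 ± 0.37, 1.45 ± 0.37 and 1.74 ± 0.37 SE (adjusted p = 0.0216, 0.00428 and 0.00055, edgeR), and without replicate 2 of LPC + dantrolene the last was 2.23.

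ITGAV, the alpha-v subunit of integrins that bind fibrillins and fibulins, was at 96.1, 60.9 and 49.3 CPM with vehicle and 142, 186 and 162 with LPC. All LPC libraries were higher, as for 16.6% of all genes tested (log2 1.25 ± 0.33 SE, adjusted p = 0.00602, edgeR). With dantrolene and LPC + dantrolene its log2 fold changes of 0.68 and 0.63 were not called (adjusted p = 0.271 and 0.381), and its interaction of −1.30 ± 0.47 SE did not pass the correction (adjusted p = 0.100, edgeR). HMCN1, the gene of hemicentin-1, a large fibulin-family protein, was at 19.0, 22.7 and 18.2 CPM with vehicle and 35.4, 51.7 and 39.5 with dantrolene (log2 1.08 ± 0.35 SE, adjusted p = 0.0362, edgeR). Levels were similar with LPC (50.5, 34.2 and 34.2 CPM) and in 2 replicates of LPC + dantrolene (59.3, 14.4 and 50.3 CPM), but neither was called. The latent TGF-beta binding proteins, emilins, and tested elastin-degrading proteases (MMP2, CTSL, CTSS, and ELANE) gave 0 calls compared to vehicle. The same held for the elastin receptor subunits GLB1, NEU1, and CTSA and for the integrin gene ITGB3.

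Several of these calls turned on single libraries or settings, though no fold change of a called gene changed sign in 18 alternatives. LOXL1 with dantrolene was lost without vehicle replicate 1 or 3, LPC replicate 2, or dantrolene replicate 2 or 3, with the replicate block and on total counts (log2 −1.10 to −0.87, adjusted p from 0.0529 to 0.258, edgeR). LOXL4 was lost with dantrolene without vehicle replicate 2 or 3 or dantrolene replicate 1 and on total counts (−1.13 to −0.99, 0.0618 to 0.0912). With LPC + dantrolene it was lost without vehicle replicate 2 or 3, LPC replicate 1 or 2, dantrolene replicate 1, or LPC + dantrolene replicate 3, with the block, with RLE size factors, on total counts, with DESeq2, and with only the groups compared (−1.05 to −0.78, 0.0541 to 0.488). The LPC call of ADAMTS6 was lost without any 1 vehicle library, without LPC replicate 1 or 2, with DESeq2, with the block, and on total counts (0.94 to 1.40, 0.0528 to 0.290). That of ITGAV was lost without vehicle replicate 2 or 3 or LPC replicate 2 (1.11 to 1.17, 0.0716 to 0.0878), and that of HMCN1 without any 1 vehicle library, LPC replicate 1 or 2, or dantrolene replicate 2 or 3, and with the block (0.91 to 1.18, 0.0657 to 0.262).

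**Figure D5:**
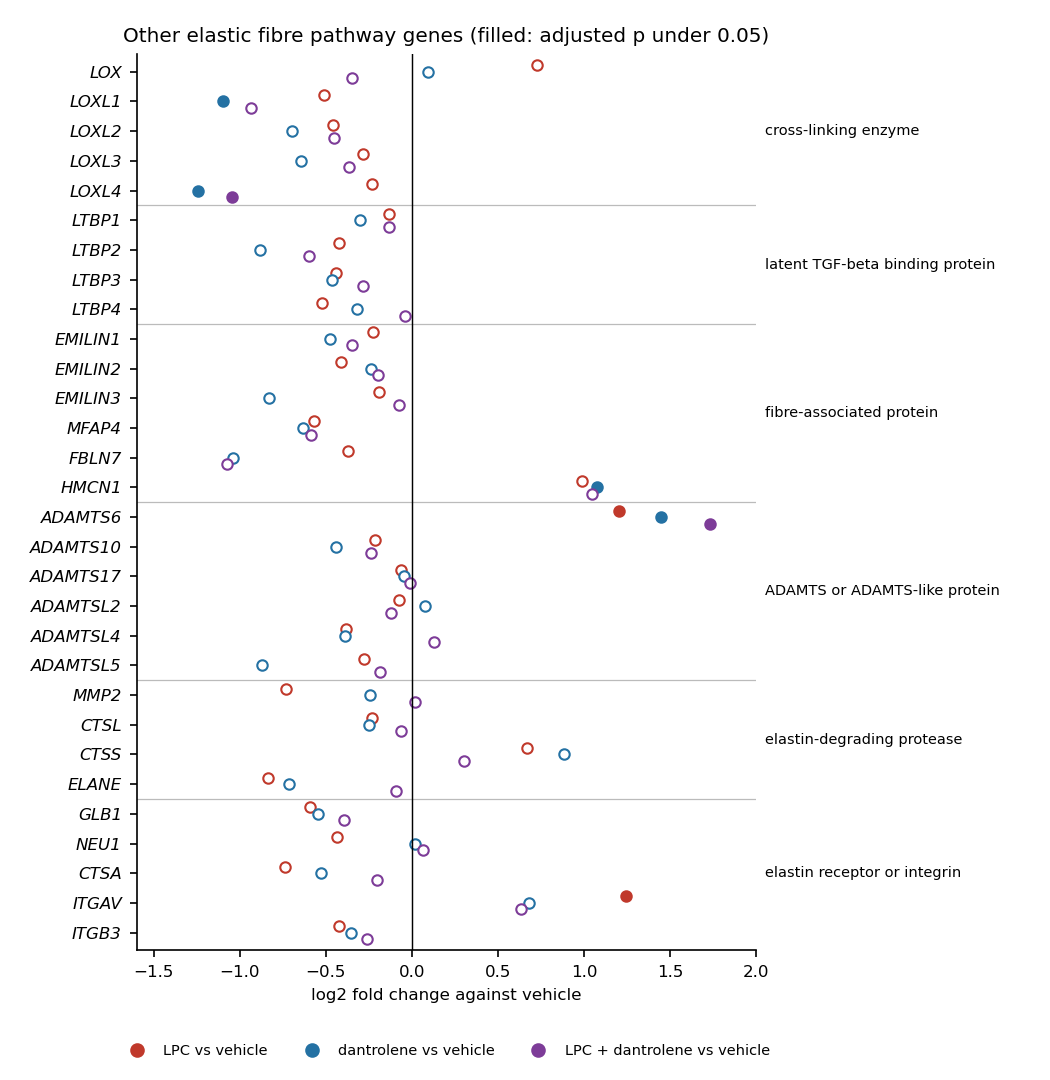
Log2 fold changes compared to vehicle of the 30 other elastic fibre pathway genes, grouped by role, with LPC in red, dantrolene in blue, and LPC + dantrolene in purple; filled points mark an adjusted p under 0.05 in edgeR. The filled points are LOXL1, LOXL4, HMCN1, ADAMTS6, and ITGAV, and most other points lie between −1.0 and 0.

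The genes whose log2 CPM followed ELN most closely over the 12 libraries, out of 10922 genes with a symbol, were IGFBP7, THY1, and CAVIN3 (Pearson r = 0.985, 0.978 and 0.966). For FBN1 they were EGLN3, ZNF704, and SLIT2 (r = 0.948, 0.927 and 0.926). These correlations describe 12 libraries that share groups and isolations and were not tested.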

How the data were processed

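RNA sequencing counts of 12 paVIC libraries were analysed. Per the study's methods, the authors aligned reads with STAR, adjusted the counts for a batch, which is not named, with ComBat, and deposited the adjusted whole-number counts per gene, whereas the submitters' processing notes list HISAT2 2.0.5, DESeq2 1.32.0, and build Sscrofa11.1. The deposited tables of the authors' own comparisons (mean normalized counts, log2 fold changes, errors, p-values) were not used. Strand setting of the counting is not given in the sources used here.

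Genes passing filterByExpr (13216) were fitted in R 4.3.3 with edgeR 4.0.16 (quasi-likelihood, TMM, group as the only term, all 12 libraries) with Benjamini-Hochberg adjusted p under 0.05 as the threshold. Alternatives were RLE size factors, total counts alone, DESeq2 1.42.0 (Wald test), no filter, the isolation as a replicate block, only the groups compared, and each library left out. The script was tested on simulated data. Log2 CPM used a prior count of 2.

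The members, the pathway list, and the marker lists were chosen with earlier results of these data known. All members were named, and pathway genes where called or in a role described. The labels give the primary isolation of each library, numbered as the replicates, and libraries of the same isolation were taken as pairs. Deviations from the group means had a median correlation of −0.152 between paired libraries and 0.108 between others, an outcome that an adjustment for the isolation would fix. P-values measure the spread between cultures of different isolations that is left in the adjusted counts. Coordinates are from RefSeq, matched by symbol for 10 of 10 members.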

Additional observations from a re-analysis of the deposited data

How the results depend on the processing

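Over 60 member results and 18 alternatives (1070 values), 10 calls were lost, 2 were gained, and 59 values of 26 results changed sign, none of them called. All lost calls were those of EFEMP1, which stayed negative, and the gained calls were MFAP2 with LPC and ELN with LPC + dantrolene. The causes were not tested. The adjusted counts limit every test, and FBN2 and MFAP5, with at most 148 counts per library, had the widest errors (SE 0.43 to 0.51 on the log2 scale compared to vehicle).

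The number of the 10 genes called with LPC compared to vehicle was 1 with only the groups compared. With LPC + dantrolene compared to vehicle it was 0 with only the groups compared and on total counts, and 0 to 2 with a library left out (2 without replicate 2 of LPC + dantrolene). Compared to LPC it was 0 in those 2 settings and with the replicate block, and 0 to 1 with a library left out.

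Of the 30 pathway genes, those called with LPC compared to vehicle numbered 1 on total counts, with DESeq2, and with the replicate block (8.1%, 7.64% and 6.66% of all genes called), 4 with only the groups compared (12.9%), and 0 (without vehicle replicate 2) to 4 (without LPC + dantrolene replicate 2) with a library left out (5.04% to 12.5%). With dantrolene they numbered 2 on total counts and with the replicate block (8.13% and 6.18%), 7 with only the groups compared (12.2%), and 1 (without vehicle replicate 3) to 8 with a library left out (3.16% to 13.2%). With LPC + dantrolene compared to vehicle they numbered 1 with DESeq2, the replicate block, and only the groups compared (6.63%, 4.68% and 4.4%), 4 without a filter (5.03%), and 1 (without vehicle replicate 2) to 9 with a library left out (3.73% to 15.5%). Compared to LPC, and for the interaction, they numbered 0 to 1 with a library left out (1 without LPC + dantrolene replicate 2, and 1 without its replicate 3).

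The results that changed sign included the uncalled log2 fold changes of MFAP2 with dantrolene (0.12 on total counts, −0.55 to 0.23 with a library left out), ELN with LPC (−0.64 to 0.0125), FBN1 with LPC (−0.14 to 0.32), and MFAP2 with LPC + dantrolene compared to vehicle (−0.23 without replicate 2 of LPC + dantrolene, up to 0.35). Isolation as a block changed the call of no member other than EFEMP1 compared to LPC.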
